A study of Rattus norvegicus with 6 samples.

Results

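The genes described here carry newly made secretory and membrane proteins out of the endoplasmic reticulum and through the Golgi. They are the subunits and assembly factors of the COPII and COPI vesicle coats, the SEC22 proteins, the ARF GTPases with their ARFGAP partners, the p24 cargo receptors (Tmed genes), the golgins and the TRAPP and COG tethering complexes. They were chosen by gene name alone, and 72 of the 19289 features in the expression table carried such a name, under 71 distinct symbols because Trappc2b has 2 entries. A mean FPKM of at least 1 (fragments per kilobase of transcript scaled to sequencing depth) was required for testing, which 69 of the 72 met. Sec31b, Tmed6 and Trappc3l, at mean FPKM of 0.387, 0.0123 and 0.218, were not tested. Sar1a, Copb2, Copg1 and Arf3, other well known members of these families, were not analysed here.

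The study measured the transcriptome of rat INS-1E cells with and without uric acid, the end product of purine breakdown. INS-1E is an insulin-secreting clone of the INS-1 insulinoma line, so all libraries stand for 1 tumour-derived line. The comparison is between 3 libraries of untreated cells and 3 of cells exposed to uric acid for 24 hours. The concentration of uric acid and any vehicle in the untreated wells were not given in the sources used here. Nothing in the labels says that the replicates were separate cultures, and the p-values then measure only the spread between these libraries, which may be technical.

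COPII vesicles bud from the endoplasmic reticulum when the GTPase SAR1 recruits an inner coat of SEC23 and SEC24, which selects cargo, and an outer cage of SEC13 and SEC31, with SEC16 organising the exit sites. COPI vesicles return escaped proteins from the Golgi and move between its cisternae, and their coatomer is recruited by ARF GTPases and released after ARFGAP proteins stimulate GTP hydrolysis. In beta cells this route carries proinsulin and most of the proteins of the secretory granule.

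Total deposited counts ran from 41191819 to 59092982 per library, and every tested member had at least 66 counts in each library. The 8 beta cell markers checked summed to between 74171 and 88150 FPKM in untreated libraries and between 72895 and 85234 FPKM with uric acid. That sum is mostly Ins1 and Ins2, and 6 of the 8 lay below 0. Mafa, a transcription factor of mature beta cells, was the 1 that passed the test, at 389 ± 16.8 FPKM untreated and 282 ± 29.5 FPKM with uric acid (SD, n = 3), a call that ended without untreated library 1 (adjusted p = 0.0564) or uric acid library 1 (0.071). Pdx1 (-0.26 on the log2 scale) and Nkx6-1 (-0.16) were lower and Slc2a2 (0.23) higher in every uric acid library without passing (edgeR adjusted p = 0.0699, 0.180 and 0.0906). The part of these markers in the results below was not tested. The 1 acinar marker measured, Prss1, was at 0 in 5 of 6 libraries. The 4 measured markers of fibroblasts, endothelium and blood summed to 1.19 to 1.83 FPKM untreated and 0.746 to 1.43 FPKM with uric acid, and the 3 of other islet cells, mostly glucagon, to between 6.005 and 10.5 FPKM untreated and between 8.06 and 10.97 FPKM with uric acid. Of the 3 ductal markers Krt7 stood between 188 and 192 FPKM untreated and between 170 and 183 FPKM with uric acid. Krt7 did not pass (edgeR adjusted p = 0.264), and Krt19 was at 0 in 5 of 6 libraries. Libraries also differed in how long genes read relative to short ones: among the 1244 longest tested genes the median deviation on the log2 scale was 0.10, 0.00 and -0.09 in the untreated replicates 1, 2 and 3, while the treated replicates read -0.01, -0.15 and 0.06.

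Across the 69 tested members, uric acid left 1 higher and 5 lower in edgeR's quasi-likelihood test, the threshold being an adjusted p of 0.05. That is 8.70% of the members, beside 7.98% of all 12460 tested features. The split by direction was 1.45% higher and 7.25% lower, beside 4.99% and 2.99% of all tested features. Arf2, Sec16a, Cog8, Sec24c and Arfgap1 fell, and Golga5 rose. Leaving out 1 library at a time, Arf2 was the only lower member without untreated library 1 or 2 or uric acid library 1 or 2, while 3 were lower without untreated library 3 and 6 without uric acid library 3. No member was higher without untreated library 1 or 2 or uric acid library 1, and 3 were higher without uric acid library 3. The changes were small, with a median size of 0.37 on the log2 scale among the 6 called members and 0.49 among all called features. The median log2 fold change of the members was -0.07, against 0.00 over all tested features, and 41 of 69 members (59.4%) lay below 0, against 49.8% of all features. In 19 members all uric acid libraries lay below all untreated ones and in 7 all lay above, which is 27.5% and 10.1% of the members beside 14.2% and 16.8% of all tested features. As these are bulk samples, fewer cells of a type and less RNA per cell cannot be told apart.

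**Figure D1:**
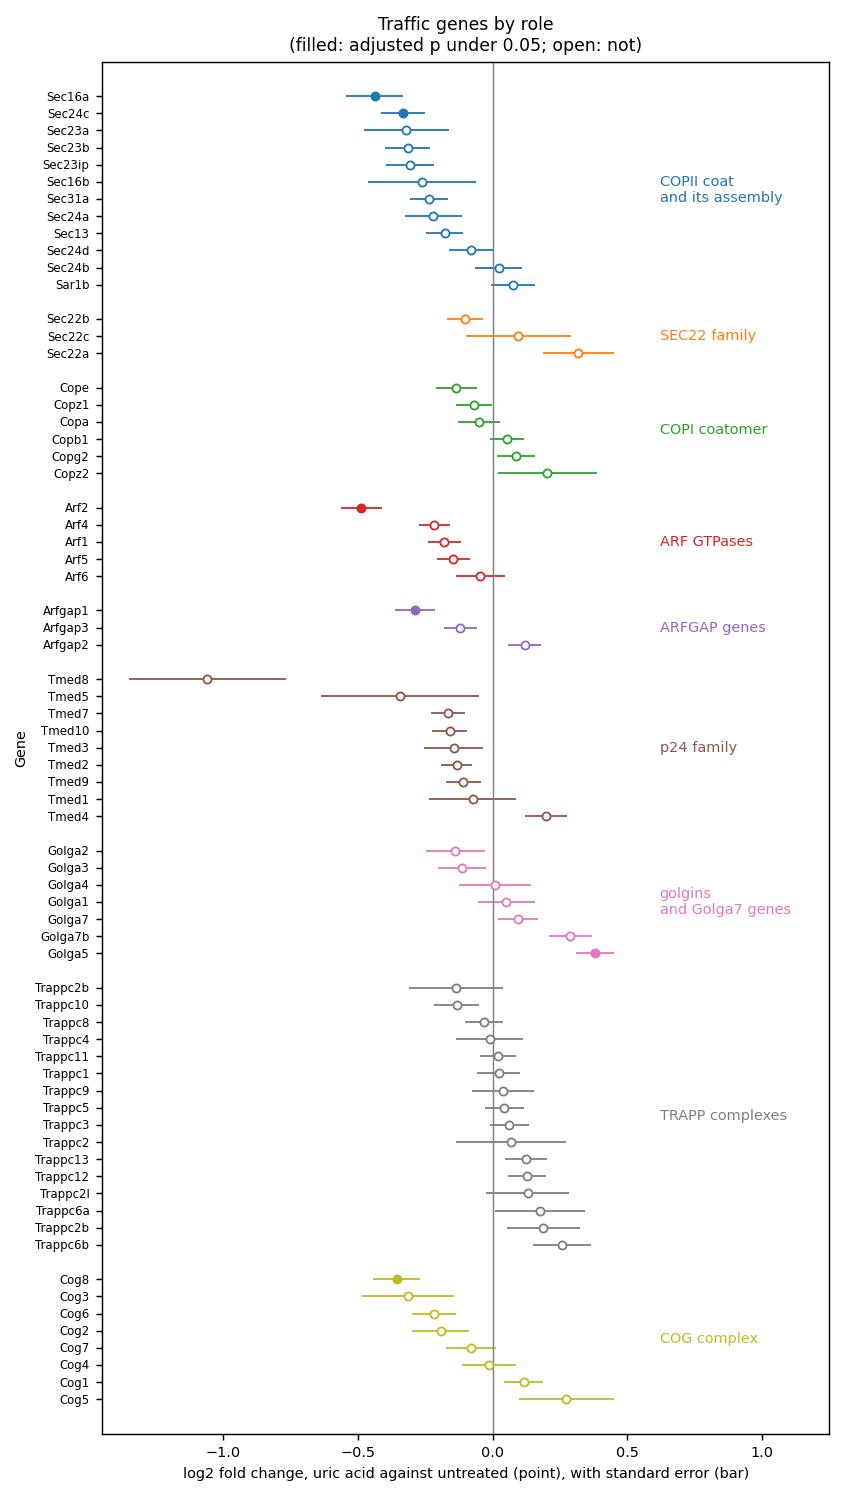
Log2 fold change of each tested member, uric acid against untreated (x axis, points with standard error bars), grouped by role and ordered by value within a role (y axis). Filled points passed an adjusted p of 0.05. The COPII and ARF genes lie mostly to the left of 0 (10 of 12 and 5 of 5) and the TRAPP genes mostly to its right (12 of 16), with Golga5 the only filled point above 0.

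The COPII coat and its assembly factors had the lowest median of the 9 roles, -0.25 on the log2 scale over 12 tested genes. Of these 12 genes 2 fell (16.7%, beside 2.99% of all tested features) and none rose. In 6 the groups did not overlap, all lower with uric acid (50.0%, beside 14.2% of all tested features). Sec16a encodes the scaffold on which COPII assembles at exit sites. It read 23.6, 21.6 and 18.6 FPKM in the untreated libraries and 15.4, 14.0 and 17.7 FPKM with uric acid. The groups did not overlap, but untreated library 3 and uric acid library 3 lay within 1 FPKM of each other. Sec16a fell by 0.44 on the log2 scale (SE 0.11, edgeR adjusted p = 0.0375, ENSRNOG00000019122, chromosome 3, 3856218 to 3890758, minus strand). Its gene model is longer than those of 98.6% of tested genes, in the length class where the libraries differed most.

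Sec24c encodes a cargo-binding subunit of the inner coat. It read 36.5, 35.1 and 34.6 FPKM untreated and 27.6, 25.4 and 31.3 FPKM with uric acid, again without overlap and with replicate 3 of each group closest to the other group. Sec24c fell by 0.33 (SE 0.08, edgeR adjusted p = 0.040, ENSRNOG00000009042, chromosome 15, 4035196 to 4057157, minus strand). The call of Sec16a ended without untreated library 1 or 2 or uric acid library 1 or 2, with adjusted p of 0.134, 0.144, 0.140 and 0.0647. The call of Sec24c ended without any of these 4 and also without untreated library 3, with adjusted p from 0.0657 to 0.152.

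The inner coat partner of SEC24 is SEC23, the GTPase-activating protein for SAR1. Sec23b read 50.6, 51.1 and 46.7 FPKM untreated and 42.1, 34.9 and 42.5 FPKM with uric acid, without overlap. Its log2 difference of -0.31 (SE 0.08) just missed the threshold at an edgeR adjusted p of 0.0526. Leaving out uric acid library 3 gave 0.0445, and leaving out any other library 0.0724 to 0.195. Without uric acid library 3, calls over all tested features also rose, from 622 to 707 higher and from 372 to 466 lower. Sec23a, at 2.30 ± 0.231 and 1.83 ± 0.325 FPKM (SD, n = 3), had a difference of about the same size, -0.32, with a standard error of 0.16. Sec23ip, which encodes a SEC23-interacting protein, stood at -0.31 with an adjusted p of 0.0672.

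The outer cage genes lay below 0 as well without passing the test. Sec31a read 33.5, 33.2 and 30.3 FPKM untreated and 28.0, 25.5 and 28.9 FPKM with uric acid, a log2 difference of -0.24 (SE 0.07, edgeR adjusted p = 0.0734). Sec13, which also serves in the nuclear pore, read 76.3, 82.5 and 81.1 FPKM against 73.4, 72.8 and 66.0 FPKM, a difference of -0.18 (adjusted p = 0.152). In both genes the groups did not overlap. Sar1b, the GTPase that starts coat assembly, went the other way, from 60.4 ± 3.12 to 63.8 ± 5.48 FPKM (SD, n = 3), with overlapping groups and an adjusted p of 0.591.

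How many COPII genes passed depended on the processing. The count of 2 became 0 with libraries scaled to the same sum of FPKM, without a filter on low values, with limma at either pseudocount, with a replicate block, or without untreated library 1 or 2 or uric acid library 1 or 2. It was 1 without untreated library 3 and 3 without uric acid library 3. After a correction for gene length in each library, chosen after seeing the data, 6 COPII genes were lower in place of 2, the added ones being Sec13, Sec23b, Sec23ip and Sec31a. Over all members that correction gave 1 higher and 11 lower (15.9% lower, beside 5.66% of all features lower and 6.70% higher), with Arf4 and Tmed10 also added. With DESeq2 in place of edgeR, 10 members were lower and 2 higher (14.5% and 2.90%, beside 6.30% and 7.77% of all features), 5 of the lower ones being COPII genes.

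The families of COPII paralogs differed widely in level. Sec23b carried nearly all SEC23 signal, 95.6 ± 0.25% of the summed SEC23 FPKM in untreated libraries and 95.6 ± 0.41% with uric acid (SD, n = 3). Among the SEC24 genes Sec24d led with 60.6 ± 0.51% untreated and 63.5 ± 0.68% with uric acid. Sec24c held 27.4 ± 0.96% untreated and 24.1 ± 0.99% with uric acid, and its share was lower in every uric acid library (22.99%, 24.2% and 25.0%) than in every untreated library (26.4%, 27.6% and 28.3%). Sec24a and Sec24b each held between 5.16% and 6.97% in all 6 libraries. Sec24d itself, from 78.4 ± 5.50 to 74.3 ± 7.37 FPKM, Sec24a, from 7.98 ± 0.87 to 6.85 ± 0.78 FPKM, and Sec24b, from 7.52 ± 0.70 to 7.64 ± 0.29 FPKM (SD, n = 3), did not pass the test (edgeR adjusted p = 0.588, 0.224 and 0.901).

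**Figure D2:**
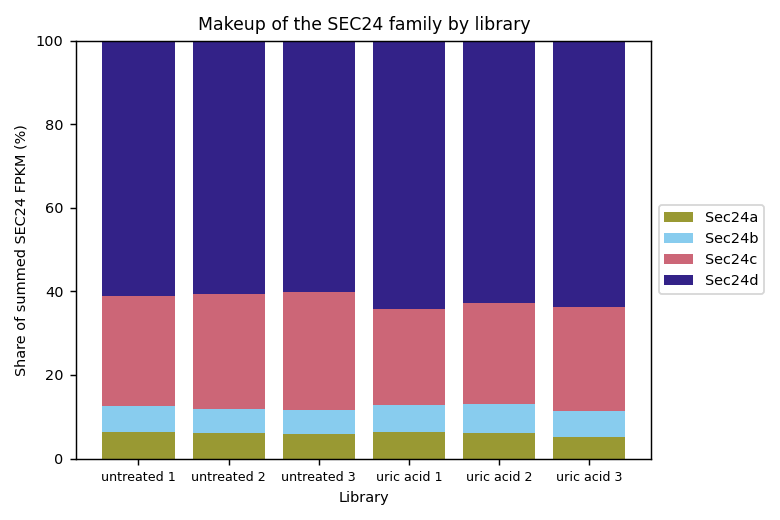
Share of each SEC24 paralog in the summed SEC24 FPKM (y axis, %) in each library (x axis, 1 stacked bar per library). Sec24d makes up 60.1% to 61.1% in untreated libraries and 62.8% to 64.1% with uric acid, and the Sec24c band is narrower in the 3 uric acid bars.

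Ratios between paralogs were compared over the libraries for 8 pairs chosen among the coat and ARF genes, 5 of which had both genes in the table, by a two-sided exact permutation test in which 3 against 3 cannot go below p = 0.1. The log2 ratio of Sec24c to Sec24d was -1.15 ± 0.06 untreated and -1.40 ± 0.07 with uric acid (SD, n = 3, exact p = 0.1, 0.167 adjusted over the 5 pairs). The Sec24a to Sec24b ratio differed by -0.25 and the Arf4 to Arf5 ratio by -0.07, each with the same exact p = 0.1 and the same adjusted value. In these 3 pairs the ratios of the groups did not overlap. Those of Sec23a to Sec23b (-0.02, exact p = 0.8) and Copz1 to Copz2 (-0.23, exact p = 0.7) overlapped. No ratio passed the adjusted threshold, which this design cannot reach, and paralogs outside these pairs were not compared.

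The SEC22 genes had no call. Sec22b, a SNARE that fuses carriers between the endoplasmic reticulum and the Golgi, stood at 28.4 ± 1.11 FPKM untreated and 26.5 ± 1.07 FPKM with uric acid (SD, n = 3). Sec22a was the highest of the family by fold, at 0.32 on the log2 scale (edgeR adjusted p = 0.169), with overlapping groups. Without uric acid library 3 it passed as higher (edgeR adjusted p = 0.0475), but not without any other library (0.256 to 0.361).

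The COPI coatomer lay at the centre of the distribution. Its 6 tested subunits had a median of 0.00, with 3 below 0, 3 above 0 and none called, the smallest edgeR adjusted p being 0.297. In 5 subunits the groups overlapped, and Copg2 alone was higher in every uric acid library. That is 16.7% of the 6 subunits, beside 16.8% of all tested features. Copg2 went from 19.2 ± 0.27 to 20.4 ± 0.78 FPKM (SD, n = 3, edgeR adjusted p = 0.465). Copa, the large alpha subunit, stood at 69.6 ± 1.33 and 67.3 ± 6.78 FPKM, and Copb1, the beta subunit, at 51.6 ± 2.48 and 53.6 ± 0.95 FPKM. Cope was the lowest by fold at -0.13 and Copz1 stood at -0.07. Copz2 was the highest at 0.20, which uric acid library 2 set: it read 31.1 FPKM there, and 21.1 and 18.1 FPKM in uric acid libraries 1 and 3, beside 20.8, 19.1 and 21.2 FPKM untreated.

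The delta subunit of coatomer, Arcn1, has a name outside the rule and did pass. It read 53.8, 51.8 and 46.5 FPKM untreated and 40.8, 40.5 and 39.9 FPKM with uric acid, without overlap. Arcn1 fell by 0.33 (SE 0.07, edgeR adjusted p = 0.0209), and the call ended without untreated library 1 or 2 or uric acid library 1, with adjusted p from 0.0791 to 0.107.

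All 5 ARF GTPases tested here, without Arf3, lay below 0, with a median of -0.18 on the log2 scale. In 4 of them, all but Arf6, every uric acid library was below every untreated one (80.0%, beside 14.2% of all tested features). Arf2, a class I ARF, was the member with the smallest p of all. It read 20.9, 20.1 and 20.6 FPKM untreated and 14.2, 14.4 and 15.4 FPKM with uric acid, a gap of several times the spread within either group. Arf2 fell by 0.49 (SE 0.07, 28.7% lower, edgeR adjusted p = 0.00676, ENSRNOG00000004807, chromosome 10, 92018562 to 92040333, plus strand). It was the only one of the 6 called members that passed in all 17 alternatives run, with adjusted p up to 0.0484.

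Arf1, the main ARF of COPI and the most abundant member of all, read 443, 477 and 476 FPKM untreated and 421, 395 and 418 FPKM with uric acid. Its groups did not overlap, but the log2 difference of -0.18 (SE 0.06) did not pass (edgeR adjusted p = 0.111). Arf4, a class II ARF, read 165, 167 and 169 FPKM untreated and 149, 145 and 139 FPKM with uric acid, a difference of -0.22 (SE 0.06, adjusted p = 0.0554). Arf4 varied little within a group, with a coefficient of variation of 1.38% untreated and 3.33% with uric acid beside member medians of 5.23% and 6.61%. It passed with DESeq2 (adjusted p = 0.0111) and after the length correction (adjusted p = 0.0138). Arf5 differed by -0.15 and Arf6, an ARF of the cell surface and endosomes, by -0.05. Because ARF transcripts resemble each other, the assignment of reads between them is uncertain. The summed ARF FPKM used here leaves out Arf3. Arf2 made up 2.36 ± 0.12% of that sum untreated and 1.91 ± 0.09% with uric acid. Arf1 made up 53.4 ± 0.51% and 53.4 ± 0.95% (SD, n = 3).

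**Figure D3:**
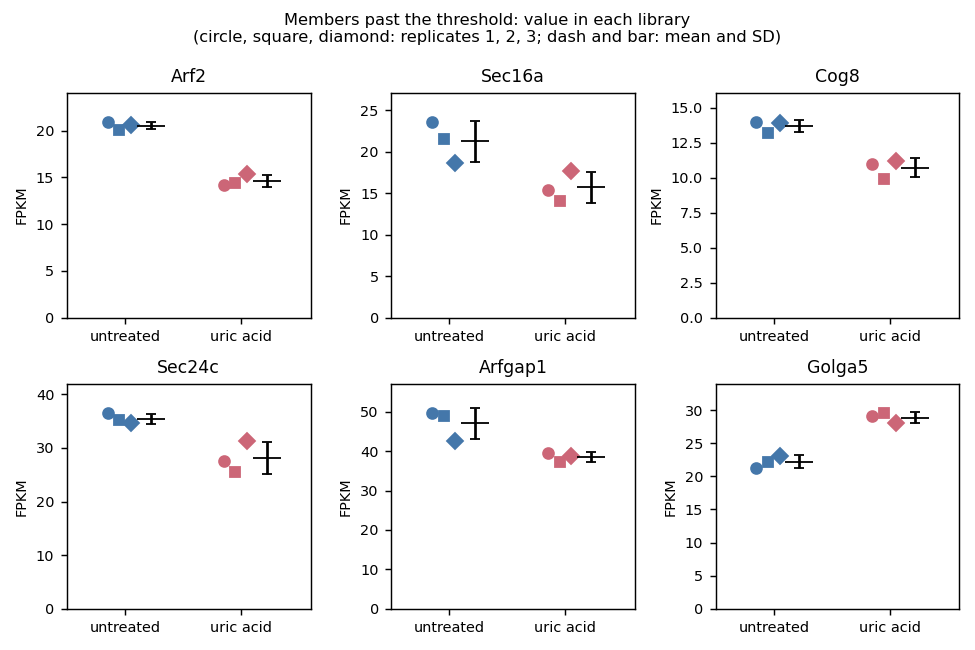
FPKM (y axis) in each library of the 6 members that passed the threshold, untreated (blue) and uric acid (red) on the x axis, with the mean and SD beside the points. The 3 libraries of each group do not overlap in any panel, and the gap is narrowest in Sec16a, between 18.6 and 17.7 FPKM.

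The ARFGAP genes were not alike. Arfgap1, which encodes the curvature-sensing activator of GTP hydrolysis on ARF1, read 49.6, 48.9 and 42.6 FPKM untreated and 39.6, 37.2 and 38.9 FPKM with uric acid, without overlap. Arfgap1 fell by 0.29 (SE 0.07, edgeR adjusted p = 0.0448, ENSRNOG00000043150, chromosome 3, 176475893 to 176489925, plus strand). This was the least stable of the calls: it ended in 11 of 17 alternatives, among them the removal of any 1 library other than untreated library 3 (adjusted p from 0.0613 to 0.188). Arfgap3 stood at 40.5 ± 1.68 and 37.2 ± 0.57 FPKM and Arfgap2, in the opposite direction, at 32.8 ± 0.43 and 35.7 ± 1.31 FPKM (SD, n = 3). Neither passed (edgeR adjusted p = 0.253 and 0.258), though the groups of both did not overlap. Of the 3 genes 66.7% were apart and lower and 33.3% apart and higher, beside 14.2% and 16.8% of all tested features.

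The p24 family of cargo receptors had 8 of 9 tested genes below 0 and a median of -0.14, with none called. The abundant ones shifted little. Tmed2 read 322, 325 and 336 FPKM untreated and 311, 293 and 295 FPKM with uric acid, a difference of -0.13 (edgeR adjusted p = 0.186). Tmed10, its partner in the p24 complex, read 134, 140 and 136 FPKM against 129, 124 and 114 FPKM, a difference of -0.16 (adjusted p = 0.167). Both pairs of groups were apart, as were those of Tmed7 and Tmed8. Groups apart and lower were thus 44.4% of the 9 tested genes, beside 14.2% of all tested features. Tmed4 was the 1 gene of the family above 0, from 55.5 ± 1.95 to 63.8 ± 5.54 FPKM (SD, n = 3). Its groups did not overlap either, which is 11.1% of the family apart and higher, beside 16.8% of all tested features.

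Tmed8 had the largest fold change of any member without passing the test. It read 4.33, 3.64 and 2.96 FPKM untreated and 1.34, 1.33 and 2.55 FPKM with uric acid, a log2 difference of -1.06 (SE 0.29, edgeR adjusted p = 0.0581). Uric acid library 3 lay closer to the untreated libraries than to the other uric acid libraries. The gene passed without that library (edgeR adjusted p = 0.0129), but not without any other library (0.0832 to 0.186). It rests on few reads, 66 counts in its lowest library.

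Among the golgins and the Golga7 genes, coiled-coil tethers of the Golgi surface and partners of palmitoyltransferases, 1 of 7 passed, and it was the only member to rise. The 1 of 7 is 14.3%, beside 4.99% of all tested features called as higher. Golga5 encodes golgin-84, a membrane-anchored tether of the Golgi rims. It read 21.2, 22.2 and 23.1 FPKM untreated and 29.1, 29.5 and 28.0 FPKM with uric acid, with a wide gap between groups that were each tight. Golga5 rose by 0.38 (SE 0.07, 30.1% higher, edgeR adjusted p = 0.0138, ENSRNOG00000007699, chromosome 6, 126353223 to 126378610, plus strand). The call ended without untreated library 1 (adjusted p = 0.0561), untreated library 2 (0.0813) or uric acid library 1 (0.0664). Golga7b was next at 0.29, from 26.3 ± 1.29 to 32.2 ± 2.61 FPKM (SD, n = 3, edgeR adjusted p = 0.0605), without overlap. Its adjusted p was 0.0359 without uric acid library 3 and 0.076 to 0.222 without any other library. With Golga5, genes apart and higher were 28.6% of the 7, beside 16.8% of all tested features. Golga2, the cis-Golgi matrix golgin GM130, was the lowest at -0.14 (adjusted p = 0.458), with overlapping groups. The remaining golgins, Golga1, Golga3 and Golga4, and Golga7 had overlapping groups as well.

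The TRAPP complexes, exchange factors for RAB GTPases and tethers of incoming vesicles, had 16 tested entries, a median of 0.05 and 12 entries above 0. None passed, with a smallest edgeR adjusted p of 0.169. Trappc6b was the highest, at 16.4, 18.8 and 19.6 FPKM untreated and 23.1, 22.5 and 19.9 FPKM with uric acid, groups that came close without overlapping. Trappc12 was the other entry with groups apart, from 12.5 ± 0.12 to 13.7 ± 0.23 FPKM. Entries with groups apart and higher were 12.5% of the tested TRAPP entries, beside 16.8% of all tested features. Trappc3, the core subunit with the highest level of the complex, stood at 47.6 ± 2.49 and 49.7 ± 1.74 FPKM (SD, n = 3). Trappc2 and the 2 entries named Trappc2b are near copies of each other, so the split of reads between them is uncertain.

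The COG complex, which tethers vesicles moving back through the Golgi, had 8 tested subunits, a median of -0.14 and 6 below 0. Cog8 read 14.0, 13.2 and 13.9 FPKM untreated and 11.01, 9.93 and 11.2 FPKM with uric acid, without overlap. Cog8 fell by 0.36 (SE 0.09, edgeR adjusted p = 0.0395, ENSRNOG00000020379, chromosome 19, 39246625 to 39257451, minus strand). Its call ended in 8 of 17 alternatives and survived the removal of only 1 library, uric acid library 3, with adjusted p from 0.0737 to 0.121 without each of the others. Cog6, from 14.8 ± 0.68 to 12.8 ± 0.84 FPKM, and Cog2, from 6.89 ± 0.23 to 6.03 ± 0.60 FPKM (SD, n = 3), had groups apart without passing. With Cog8, subunits apart and lower were 37.5% of the 8, beside 14.2% of all tested features. Cog4, at 7.97 ± 0.34 and 7.89 ± 0.79 FPKM, moved by less than its spread. Cog5 and Cog1 were the 2 above 0, and Cog1 overlaps Fam104a on the opposite strand, as Tmed1 overlaps Dnm2, so that reads of either could be shared if strand was not used in counting.

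**Figure D4:**
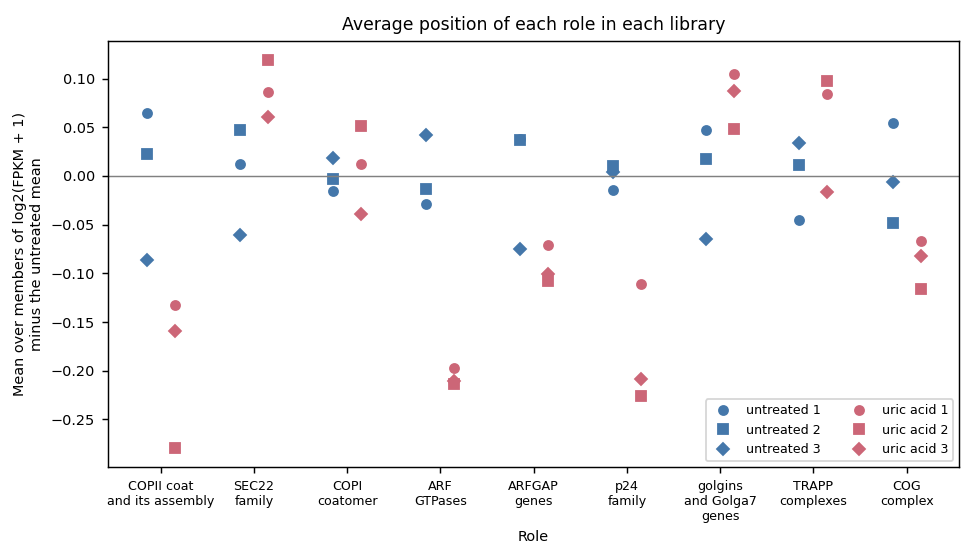
Mean over the tested members of each role of log2(FPKM + 1) minus the untreated mean of the gene (y axis), in each library (points; circle, square and diamond are replicates 1, 2 and 3), by role (x axis). For the ARF genes the uric acid libraries lie between -0.21 and -0.20 and the untreated ones between -0.03 and 0.04, while the COPI and TRAPP groups overlap.

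Averaged over the members of a role in each library, the COPII genes stood at 0.06, 0.02 and -0.09 in the untreated libraries and -0.13, -0.28 and -0.16 with uric acid, on a scale of log2(FPKM + 1) against the untreated mean. The ARF genes stood at -0.03, -0.01 and 0.04 against -0.20, -0.21 and -0.21. The untreated libraries ranked in the COPII values as they did in the long genes described above, and in the ARF values the other way round. The TRAPP genes stood at -0.05, 0.01 and 0.03 against 0.08, 0.10 and -0.02, so that their groups overlapped. Over the 17 alternatives the role medians kept their sign for COPII (-0.31 to -0.20), ARF (-0.22 to -0.15), ARFGAP (-0.15 to -0.10), p24 (-0.18 to -0.11), COG (-0.19 to -0.10) and TRAPP (0.02 to 0.11). They crossed 0 for COPI, SEC22 and the golgins.

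The members were on the whole well expressed. Their median level, 23.6 FPKM, lay at the 73.5 percentile of the tested features, whose median was 10.4 FPKM. The order was led by Arf1 at a mean of 438 FPKM over the 6 libraries, then Tmed2 at 314, Tmed9 at 205, Arf5 at 177 and Arf4 at 156 FPKM. The coat subunits spanned the range: Sec24d at 76.4, Sec13 at 75.3 and Copa at 68.5 FPKM ranked 7, 8 and 9 of the 72, with differences within the spread of the libraries. Sec16b at 1.20 FPKM, Sec23a at 2.06 FPKM and Tmed8 at 2.69 FPKM were the lowest of those tested.

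**Figure D5:**
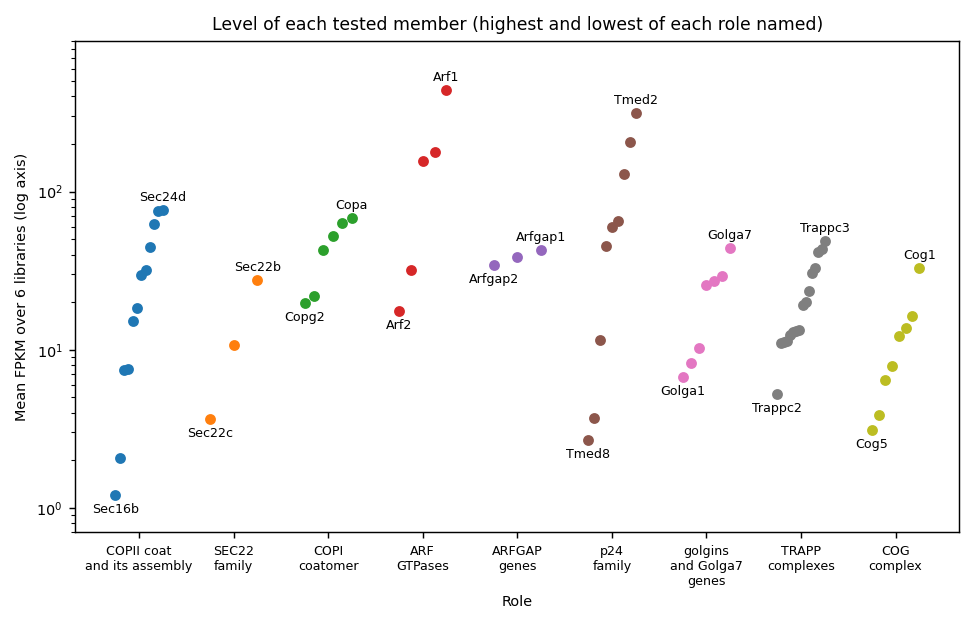
Mean FPKM over the 6 libraries of each tested member (y axis, log scale) by role (x axis), with the highest and lowest of each role named. Levels run from 1.20 FPKM for Sec16b to 438 FPKM for Arf1, and the widest ranges are those of the COPII and p24 genes.

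Promoter sequence was read for the members from RefSeq's GRCr8 annotation, which is not the build of the table's coordinates as far as the sources used here tell, over 250 bases before the annotated start. Of the 68 tested symbols 59 matched, among them 5 of the 6 called members. The promoter of Golga5, the 1 gene that rose, and that of Sec16a are shown because both hold TGACGT, the core of the cyclic AMP response element and of an XBP1 site, here in capitals on either strand (ACGTCA when read on the other), and that of Arf2 because it is the firmest call. Each line gives the last 100 bases before the start, 5′ to 3′ on the strand of the gene.
Golga5: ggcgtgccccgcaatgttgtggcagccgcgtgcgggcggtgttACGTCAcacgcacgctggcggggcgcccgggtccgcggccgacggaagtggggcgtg
Sec16a: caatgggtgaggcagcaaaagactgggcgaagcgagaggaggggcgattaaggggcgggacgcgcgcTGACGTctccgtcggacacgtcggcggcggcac
Arf2: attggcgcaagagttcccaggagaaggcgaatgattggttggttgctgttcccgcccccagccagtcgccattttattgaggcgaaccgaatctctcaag

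These are chr6:127377144-127377243 on the plus strand, chr3:29662320-29662419 on the minus strand and chr10:89367743-89367842 on the plus strand of GRCr8. TGACGT or its reverse complement stood in 13 of the 59 member promoters (22.03%), beside 11.8% of the 8218 promoters matched to tested features and 6.95% of all 33469 promoters. None of the motifs searched was found in the window of Arf2.

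Another run of letters was in fewer member promoters than TGACGT, but further above its share of the promoters of tested features. ACGTGGC, the core of the Golgi stress response element to which TFE3 binds, stood on either strand in 11 of 59 member promoters (18.6%), beside 3.32% of the promoters of tested features and 2.00% of all promoters. The 11 include the 5 most abundant members, Arf1, Tmed2, Tmed9, Arf5 and Arf4. Their windows are shown because they are the sequence these genes have in common, with the motif in capitals and up to 8 bases on each side, cut at the start site in Arf4. GCCACGT is the same motif read on the other strand.
Arf1: aggcgctgACGTGGCtgccgtca
Arf4: gccgtgtgACGTGGC
Arf5: ggggcgggGCCACGTgacgtcgg
Tmed2: cgtccgttACGTGGCagctgtcg
Tmed9: gcaggtctACGTGGCtcggcagt
Sec23a: cccatttgACGTGGCagaggcgg
Sec31a: ctgcggctGCCACGTtggagcgg
Sec22a: cagcgccaGCCACGTtggacgcg
Golga1: gctcgctgACGTGGCagtggccg
Golga3: agggcgtgGCCACGTggatcatc
Cog3: ggtcgaaaGCCACGTctgttctg

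Of these 11 genes 9 lay below 0, with a median log2 fold change of -0.15, and none passed the test. Of the 48 matched members without the motif 27 lay below 0, with a median of -0.05, and 5 passed. Over all tested features 49.8% lay below 0, the median was 0.00 and 7.98% passed. At that rate 11 genes are too few to tell whether calls differ with the motif, and this was not tested. A match is a description of the letters only. The motif overlaps others: its reverse complement holds CCACG, the part of the ER stress response element read by ATF6, which stood in 36 of 59 member promoters (61.0%, beside 43.0% of those of tested features and 27.2% of all), and in several genes it follows TG to make TGACGT as well. The full ER stress response element and the ATF4 element TGATGCAA were in none of the 59 windows, at 0.170% and 0.535% of the promoters of tested features. CAGCTG, the E-box of MIST1, was in 7 (11.9%, beside 11.55% and 12.0%).

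Other genes of the route were read from 7 lists by function, 94 symbols of which 92 were tested: 3 passed as higher (3.26%, beside 4.99% of all tested features) and 7 as lower (7.61%, beside 2.99%), and the median was -0.05, against 0.00. Without Crebrf and Bhlha15, listed with their changes known, 2 of 90 were higher (2.22%) and 6 lower (6.67%). Leaving out 1 library at a time gave 1 to 4 higher and 1 to 5 lower. Of 21 tested COPII cargo receptors and accessory factors, Tfg, which organises exit sites, fell by 0.25 (edgeR adjusted p = 0.0483), a call that ended without any 1 of the 6 libraries (adjusted p from 0.0646 to 0.195). Preb, the exchange factor for SAR1, read 26.9 ± 0.945 FPKM untreated and 21.2 ± 2.63 FPKM with uric acid (SD, n = 3). Its groups did not overlap, and it did not pass (edgeR adjusted p = 0.0658). Leaving out uric acid library 2 gave 0.0113, and leaving out any other library 0.105 to 0.213. Among 8 COPI partners, Arcn1 above fell and the KDEL receptors, which retrieve escaped chaperones, did not pass: Kdelr2 differed by -0.24 (adjusted p = 0.0554), Kdelr1 by -0.08 and Kdelr3 by -0.05.

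The ARF exchange factors and other ARF GAPs had no call in 23 tested genes, with Gbf1, the exchange factor at the cis-Golgi, at -0.11. The Golgi matrix genes outside the Golga names had none in 13, with Golgb1, the largest golgin, at -0.01. Of 14 SNARE genes 1 rose and 1 fell (7.14% each, beside 4.99% and 2.99% of all tested features). Stx5, the Golgi syntaxin, read 38.1, 38.2 and 38.7 FPKM untreated and 45.7, 49.7 and 43.8 FPKM with uric acid, and rose by 0.27 (edgeR adjusted p = 0.0488). Ykt6, a SNARE of the same fusion steps, read 41.6, 43.4 and 38.6 FPKM against 34.6, 30.9 and 33.0 FPKM, and fell by 0.33 (adjusted p = 0.0364). Rint1, of the tether that receives COPI vesicles at the endoplasmic reticulum, fell by 0.46 (adjusted p = 0.034), with 2 other subunits not called. The Ykt6 and Rint1 calls ended without any 1 library, with adjusted p from 0.0548 to 0.179 and from 0.0547 to 0.132. That of Stx5 ended without any other than uric acid library 3, with adjusted p from 0.095 to 0.186.

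Of 10 transcription factors tied to secretory capacity or Golgi stress, 2 rose and 3 fell, beside 4.99% and 2.99% of all tested features. These counts include Crebrf and Bhlha15, listed with their changes known, so they cannot be weighed against those shares. Apart from these genes, Tfe3 rose and Creb3 and Mlx fell. Creb3, a membrane-bound factor cut in the Golgi that can raise Arf4, read 51.3, 53.3 and 52.7 FPKM untreated and 43.6, 38.6 and 40.5 FPKM with uric acid, and fell by 0.36 (SE 0.07, edgeR adjusted p = 0.0156). Tfe3, which binds the ACGTGGC element, read 11.9, 14.2 and 11.7 FPKM against 17.1, 17.1 and 17.2 FPKM, and rose by 0.44 (SE 0.10, adjusted p = 0.0272). The Creb3 call ended without untreated library 2 (adjusted p = 0.0871) or 3 (0.0543), and the Tfe3 call without untreated library 1 or 3 or uric acid library 1 (adjusted p from 0.0832 to 0.0991). Mlx, the partner of the ChREBP family, also fell, by 0.28 (SE 0.06, edgeR adjusted p = 0.0294). It is named to complete the count after its value was seen. The Mlx call ended without any library other than uric acid library 2, with adjusted p from 0.0597 to 0.142. The largest changes were those of Crebrf, a regulator of Creb3, which rose by 2.08, and Bhlha15 (MIST1), which fell by 1.59, and both were put on the list with those changes known.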

How the data were processed

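RNA was selected with oligo-dT and sequenced as paired reads of 150 bases from dUTP-marked libraries, per the labels' protocols. Tools listed in the submitters' processing notes are HISAT2 2.0.4, cutadapt 1.9, StringTie 1.3.4d, edgeR and DESeq2. Their roles, the genome build and the use of strand in counting are not given in the sources used here. The authors deposited 1 table with FPKM and estimated counts per gene. A full read pair appears to add up to 4 of these counts, which the sources used here do not state. FPKM were used as deposited for levels and for the filter (mean of at least 1).

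The deposited estimated counts were used as they stand and scaled by TMM (factors 0.992 to 1.01). They were tested with edgeR 4.0.16 (quasi-likelihood F test, R 4.3.3, two-sided) over all 12460 features passing the filter, with Benjamini-Hochberg adjustment and a threshold of 0.05. The common biological coefficient of variation was 0.127 while log2 fold changes had standard errors of 0.113 in the median, and no feature changed by less than 0.208 was called. The script was tested on simulated data. Groups came from the sample titles. Alternatives used DESeq2 1.42.0, limma 3.58.1 on log2(FPKM + 1) and log2(FPKM + 0.1), other scalings and filters, counts divided by 4, a replicate block and each library left out. A correction for gene length was added after seeing the data. Members, lists and roles were chosen with earlier results of these data known. Named were all called members, the core coat genes, the extremes of each role, up to 4 called genes per list and some others after their values were seen. The tally over alternatives covers all tested members.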

Additional observations from a re-analysis of the deposited data

How the results depend on the processing

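Over 17 alternatives the 69 tested members and 17 other named genes gave 1454 comparisons with the reported result. A call was lost in 101 and gained in 25, and no called gene reversed (0). In 3 a gene without a call changed sign by more than its standard error. In the remaining 1325 the call, or the lack of one, stayed as reported. Sizes there could still move by more than a standard error: Crebrf, reported at 2.08 (SE 0.08), ran from 1.61 to 2.12. The 994 features called became 637 when libraries were scaled to the same sum of FPKM, 1753 with DESeq2, 322 with a replicate block, 1540 with the length correction, and 231 to 1173 with 1 library left out. Lower members, 5 as reported, numbered 1 with the same sum of FPKM, 1 without a filter, 2 with limma at either pseudocount, 10 with DESeq2, 1 with the replicate block, 11 with the length correction, and 1 to 6 with 1 library left out. Higher members, 1 as reported, numbered 2 at a mean FPKM of at least 5, 2 with DESeq2, 0 with the replicate block, and 0 to 3 with 1 library left out. Pathway genes, 3 higher and 7 lower as reported, numbered 1 and 3 with the same sum of FPKM, 1 and 1 with the replicate block, 4 and 12 with DESeq2, 4 and 12 with the length correction, and 1 to 4 and 1 to 5 with 1 library left out. The median of the members stayed between -0.09 and -0.05. Fewer libraries leave fewer degrees of freedom, and the causes of the other shifts were not tested. Same-numbered libraries of the 2 groups correlated at 0.0684, -0.0492 and -0.19, which gives no sign of pairing by number. So few libraries cannot decide whether there was any pairing. The block also takes up degrees of freedom. Not every library correlated best with its own number. The members' standard errors had a median of 0.08 on the log2 scale, and changes under 0.208 were not called at this depth and number of libraries.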

Other observations

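Of the 72 members, 67 carry a GO term that names the Golgi in the deposited annotation, 47 a term for vesicle transport between the endoplasmic reticulum and the Golgi, and 10 the KEGG pathway of protein processing in the endoplasmic reticulum. The 6 called members all carry a Golgi term, as do 64 of the 69 tested members, which were chosen by such names. Of all 991 tested features with a Golgi term, 40 passed as higher and 35 as lower. Over all 12460 tested features 622 passed as higher (4.99%) and 372 as lower (2.99%). Whether features with a Golgi term differ from the rest was not tested.

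By the deposited coordinates, 4 pairs of members lie within 50000 bases of each other. Sec24a and Sar1b, both COPII genes, lie head to head on chromosome 10 with 37 bases between them, Sec24a on the minus strand at -0.22 and Sar1b on the plus strand at 0.08 on the log2 scale, neither called. The other pairs are Trappc2b with Sec24a, Cog8 with the unexpressed Tmed6, and Sec23a with Trappc6b (-0.32 and 0.26, neither called).

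A coefficient of variation over 20% in either group was seen in 9 members: Cog3, Copz2, Sec16b, Trappc2, Trappc2b, Trappc6a, Tmed1, Tmed5 and Tmed8. Uric acid library 2 was the highest of its group in Copz2, Trappc2 and Trappc6a.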
